A study of Mus musculus with 15 samples.

Results

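The genes described here encode the proteins of the cytosolic ribosome, measured as mRNA in mouse liver. They were taken by name alone, as every gene with a symbol of its own in the array annotation that starts with Rpl or Rps, without the Rps6k kinases and the pseudogenes named as such, and 63 of the 19938 measured genes met that rule. Of these, 38 carry the name of the large subunit and 25 that of the small subunit. By the form of the symbol, 54 were taken as the standard ribosomal proteins (33 large, 21 small). The other 9 were taken as paralogs or genes that only share the name. Among them are Rps19bp1, a binding protein of Rps19, and Rps4l, which RefSeq holds as a transcribed pseudogene. A further 20 symbols, among them Rpl3, Rpl11, Rpl13a, Rps24 and Rps27, were found only on probe groups that carry several gene symbols, and were not used here. The liver RNA came from male C57BL/6J mice and was measured on 15 arrays (GeneChip Mouse Gene 1.0 ST) in 5 groups of 3. The groups were Ath+HF+BCAA at 68w, Ath+HF at 68w, Ath+HF+BCAA at 38w, Ath+HF at 38w and basal diet at 38w, where Ath+HF is the atherogenic and high-fat diet, BCAA is a 3% supplement of branched-chain amino acids and w is the week. The diets were started at week 8, which makes 30 weeks of diet at 38w and 60 at 68w. All basal diet arrays are of 38w. Where 68w arrays are set against 38w arrays, the mouse's age, the length of the diet and a possible batch cannot be told apart.

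The ribosome is built of a small subunit, which reads the mRNA, and a large subunit, which joins the amino acids. Its proteins are made from mRNAs that mostly begin with a C followed by a tract of C and T, the terminal oligopyrimidine or TOP motif. Through this tract their translation, more than their amount, is controlled by the kinase complex mTORC1 and the binding protein LARP1, and leucine, which is one of the BCAA, is a known activator of mTORC1. Rps6 is the classic substrate of S6 kinase, which mTORC1 activates. Hepatocytes make large amounts of secreted protein and hold many ribosomes. The arrays measure the mRNA amount and not how much of it is translated, and in whole liver, fewer cells of a type and less RNA per cell cannot be told apart.

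The annotated start sites of 8 members are given here, because the TOP motif is defined there. The results below return to all of them but Rpl14. Each line runs 5′ to 3′ over the 15 bases before and the 15 bases from the RefSeq start in GRCm38.p6, and the longest run of C and T is in capitals.
Rps6, chr4:86857353-86857382, minus strand: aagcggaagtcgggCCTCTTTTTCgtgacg
Rplp0, chr5:115559452-115559481, plus strand: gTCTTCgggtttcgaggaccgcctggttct
Rplp2, chr7:141447636-141447665, plus strand: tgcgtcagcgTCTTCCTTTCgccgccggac
Rpl28, chr7:4792950-4792979, plus strand: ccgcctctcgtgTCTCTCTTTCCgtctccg
Rpl14, chr9:120571502-120571531, plus strand: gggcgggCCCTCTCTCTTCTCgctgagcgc
Rps21, chr2:180257364-180257393, plus strand: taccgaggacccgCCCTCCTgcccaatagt
Rpl36a, chrX:134585639-134585668, plus strand: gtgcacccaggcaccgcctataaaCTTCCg
Rps27l, chr9:66946071-66946100, plus strand: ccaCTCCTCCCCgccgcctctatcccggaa
The run of C and T crosses or touches the annotated start in Rps6, Rplp2, Rpl28, Rpl14 and Rps21, whereas in Rplp0 and Rps27l it lies before the start and in Rpl36a after it. Rps21 and Rps27l have 2 annotated starts each, of which 1 is given, and at the other start the longest run is of 4 bases in both. RefSeq starts were at hand for 51 of the 63 members, with 60 start sites in all. A C followed by 4 bases of C or T lay exactly at the annotated start in 10 of these 60 (16.7%), against 823 of 32851 start sites of all genes (2.50%). Rps6, Rplp2, Rpl28, Rpl14 and Rps21 are among these 10, so the 8 starts shown above hold a larger share of them. A run of at least 8 bases of C and T within 15 bases of the start was present in 19 (31.7%), against 12% of all start sites. In the 300 bases from 250 before to 50 after the start, CCGGAAG, a motif of ETS factors, was found on either strand in 20 (33.3%), against 8.86% of all. GGGCGG, the box bound by Sp1, was found in 34 (56.7%), against 35.7% of all, and AAGATGGC, which is part of the YY1 motif, in 3 (5%), against 2.75%. These matches describe the annotated sequence, and an annotated start can lie some bases from the one used in liver.

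The deposited values are log2 signals, and array medians lay between 6.91 and 7.16. A gene was called higher or lower at an adjusted p under 0.05 from limma, with Benjamini-Hochberg adjustment over all 19938 genes. Whether the arrays of a group come from separate mice is not stated in the labels, and the p-values therefore measure only the spread among these arrays, part of which may be technical. The hepatocyte markers were bright in each group, with a mean log2 level over 8 genes of 13.22 to 13.51 in all arrays. Between the 68w groups, 7 of 9 macrophage markers were higher and none lower in Ath+HF+BCAA 68w, going by the labels, than in Ath+HF 68w (median log2 difference 2.24). The mean macrophage level ran from 10.43 to 10.81 in Ath+HF+BCAA 68w and from 8.36 to 8.52 in Ath+HF 68w, and from 8.79 to 8.82 in basal diet arrays. In the same comparison 5 of 6 stellate, 4 of 4 cholangiocyte, 4 of 4 T cell and 4 of 6 endothelial markers were higher and none lower, while 4 of 8 hepatocyte markers were lower (median -0.20). The part of these cell types in the results below was not tested. Group names follow the array labels throughout, and if the labels of the 68w groups were exchanged, each difference between these groups would change its sign, the values against basal diet would pass to the other 68w group, and the differences from 38w and the interaction would take other values.

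At 38w no ribosomal protein gene was called in either diet group. In Ath+HF 38w against basal diet, 0 of 63 passed, where 4.23% of all genes did, and in Ath+HF+BCAA 38w against basal diet again 0 of 63 passed, where 5.49% of all genes did. The differences were small in both, with a median log2 difference of 0.11 for Ath+HF 38w and 0.06 for Ath+HF+BCAA 38w, and a range from -0.29 to 0.33 and from -0.30 to 0.36. The values were above 0 for 53 members in Ath+HF 38w and for 45 in Ath+HF+BCAA 38w, beside 50.8% and 47.6% of all genes. With array medians set equal they were above 0 for 41 and 32 members, with medians of 0.03 and 0.0015, beside 34.1% and 36.2% of all genes. The unadjusted p of limma was under 0.05 for 11 members in Ath+HF 38w, beside 17.6% of all genes, and for 3 in Ath+HF+BCAA 38w, beside 20% of all genes. Nearest to the threshold was Rpl29, a large subunit protein with affinity for heparin, at 10.04, 9.94 and 10.16 in Ath+HF 38w, against 9.73, 9.65 and 9.77 in basal diet. Its arrays did not overlap, with a log2 difference of 0.33 (standard error 0.10), but the adjusted p was 0.0969 from limma. Rps6 stood at 13.20, 13.28 and 13.28 in Ath+HF 38w, against 13.17, 13.21 and 13.08 in basal diet, and was not called.

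At 68w about as many ribosomal protein genes were higher as lower than in basal diet, and single members moved by up to 2.61-fold. In Ath+HF+BCAA 68w 13 members were higher and 16 lower, so that 46.0% were called, where 44.6% of all genes were (22.9% higher, 21.8% lower). In Ath+HF 68w 15 were higher and 15 lower, so that 47.6% were called, where 38.1% of all genes were (19% higher, 19.1% lower). The medians over the members were near 0, at -0.03 in Ath+HF+BCAA 68w and -0.01 in Ath+HF 68w, beside 0.01 and 0.05 over all genes. The signals of the groups did not overlap for 34 members in Ath+HF+BCAA 68w (18 higher, 16 lower), where 56.2% of all genes did not overlap (29.1% higher, 27.1% lower), and for 40 members in Ath+HF 68w (20 higher, 20 lower), where 50.1% of all genes did not (26.4% higher, 23.7% lower). Both comparisons share the basal diet arrays, and their values are set side by side below without a test of likeness. The split depended on the scaling of the arrays for Ath+HF+BCAA 68w. Setting array medians equal gave 7 higher and 26 lower. It moved the median of all genes from 0.01 to -0.20 and gave 13.3% of all genes higher and 38.2% lower. Quantile normalization gave 22 higher and 14 lower, beside 19.8% and 20.6% of all genes. For Ath+HF 68w, array medians set equal gave 13 higher and 17 lower, beside 13.3% and 22.9% of all genes. It moved the median of all genes from 0.05 to -0.02, a smaller shift than in Ath+HF+BCAA 68w. Quantile normalization gave 15 higher and 10 lower in Ath+HF 68w, beside 16.6% and 16% of all genes.

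**Figure D1:**
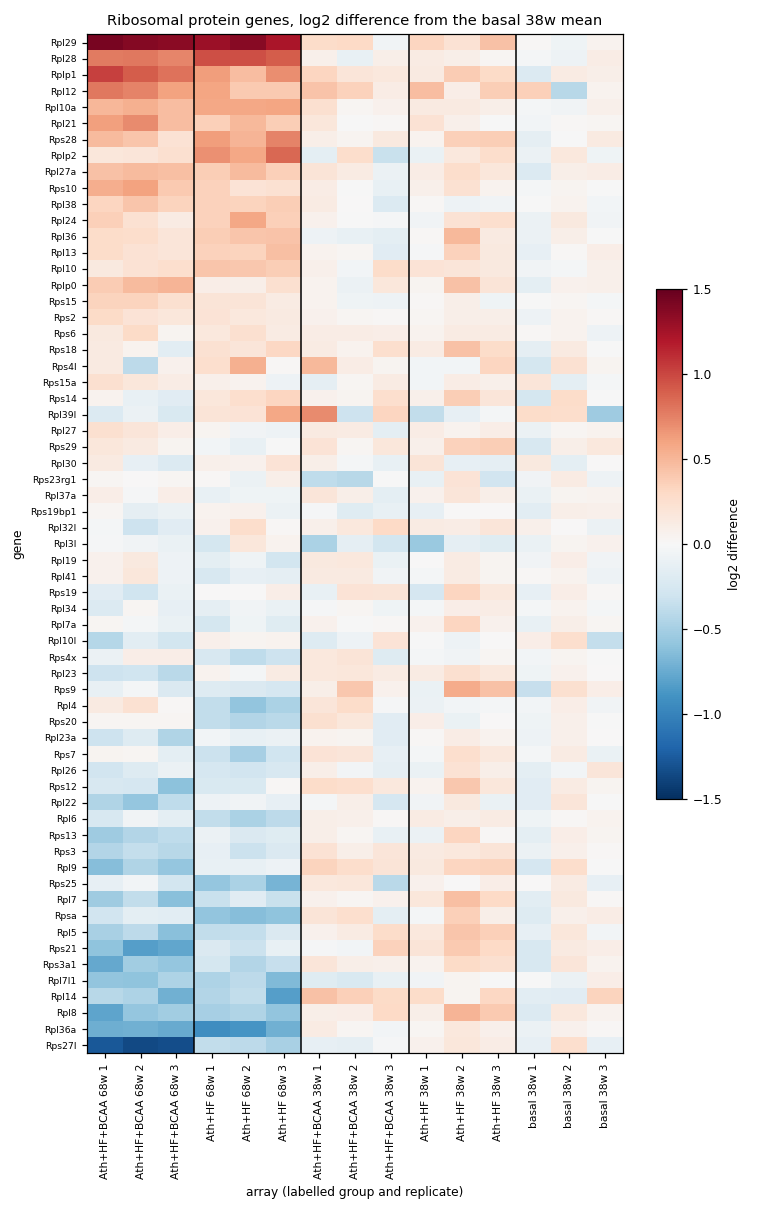
Log2 difference of each of the 63 genes (rows) in each of the 15 arrays (columns) from the mean of the 3 basal diet arrays, with red for higher and blue for lower. Rpl29 and Rpl28 at the top and Rps27l and Rpl36a at the bottom stand apart in the 68w arrays, whereas the 38w arrays are mostly pale.

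Among the higher members Rpl29 changed most. It had 11.15, 11.10 and 11.07 in Ath+HF+BCAA 68w and 11.01, 11.09 and 10.94 in Ath+HF 68w, against 9.73, 9.65 and 9.77 in basal diet. Each 68w array was above each basal array, and the log2 differences were 1.38 for Ath+HF+BCAA 68w (standard error 0.10, adjusted p = 6.98e-08 from limma, 2.61-fold) and 1.29 for Ath+HF 68w (standard error 0.10, adjusted p = 2.04e-06, 2.45-fold). Rpl28, a large subunit protein without a counterpart in budding yeast, had 12.61, 12.62 and 12.56 in Ath+HF+BCAA 68w and 12.80, 12.80 and 12.75 in Ath+HF 68w, against 11.81, 11.75 and 11.94 in basal diet. The differences were 0.76 and 0.95 (standard error 0.09 each), and all 5 of its probe groups were called higher in both comparisons. Rpl10a, which sits at the L1 stalk where the used tRNA leaves, was 0.50 higher in Ath+HF+BCAA 68w and 0.58 higher in Ath+HF 68w (standard error 0.08 each). All 4 of its probe groups were called higher. Rpl21, of the large subunit, was 0.60 higher in Ath+HF+BCAA 68w and 0.41 in Ath+HF 68w (standard error 0.09 each), in all 9 of its probe groups. Rpl10, which joins the large subunit late in its making, was called higher in Ath+HF 68w (0.39, standard error 0.09), while its value in Ath+HF+BCAA 68w was 0.21 and was not called.

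Among the lower members Rps27l, a paralog of Rps27 known as a target of p53, changed most in Ath+HF+BCAA 68w, and it differed between the 68w groups. It had 10.75, 10.67 and 10.69 in Ath+HF+BCAA 68w and 11.65, 11.63 and 11.53 in Ath+HF 68w, against 11.89, 12.26 and 11.90 in basal diet. No array of 1 of these groups reached the range of another, and Rps27l fell by 1.32 on the log2 scale in Ath+HF+BCAA 68w (standard error 0.10, adjusted p = 9.66e-08 from limma) and by 0.41 in Ath+HF 68w (standard error 0.10, adjusted p = 0.0053). Rpl36a, a large subunit protein encoded on the X chromosome, had 11.23, 11.25 and 11.21 in Ath+HF+BCAA 68w and 11.03, 11.08 and 11.25 in Ath+HF 68w, against 11.88, 12.03 and 11.98 in basal diet. Its differences were -0.73 and -0.85 (standard error 0.09 each), and -0.85 was the lowest of the members in Ath+HF 68w. Both of its probe groups were called lower. Rpl8, which lies near the peptidyl transferase centre, was at 9.96, 10.17 and 10.23 in Ath+HF+BCAA 68w and at 10.25, 10.31 and 10.16 in Ath+HF 68w, against 10.55, 10.91 and 10.80 in basal diet, with differences of -0.63 and -0.51 (standard error 0.13 each). Rpl5, which carries the 5S rRNA into the large subunit and binds Mdm2, was -0.50 in Ath+HF+BCAA 68w and -0.32 in Ath+HF 68w (standard error 0.11 each). Of its 5 probe groups 4 were called lower in both. With quantile normalization neither call held (-0.32, adjusted p = 0.0545, and -0.24, adjusted p = 0.16). The call of Rpl5 in Ath+HF 68w was lost without basal diet replicate 2 (-0.23, adjusted p = 0.121), and likewise when either replicate 1 or replicate 2 of Ath+HF 68w was left out. Rps3, at the mRNA entry of the small subunit, fell in Ath+HF+BCAA 68w (-0.40, standard error 0.09), while its -0.22 in Ath+HF 68w was not called.

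**Figure D2:**
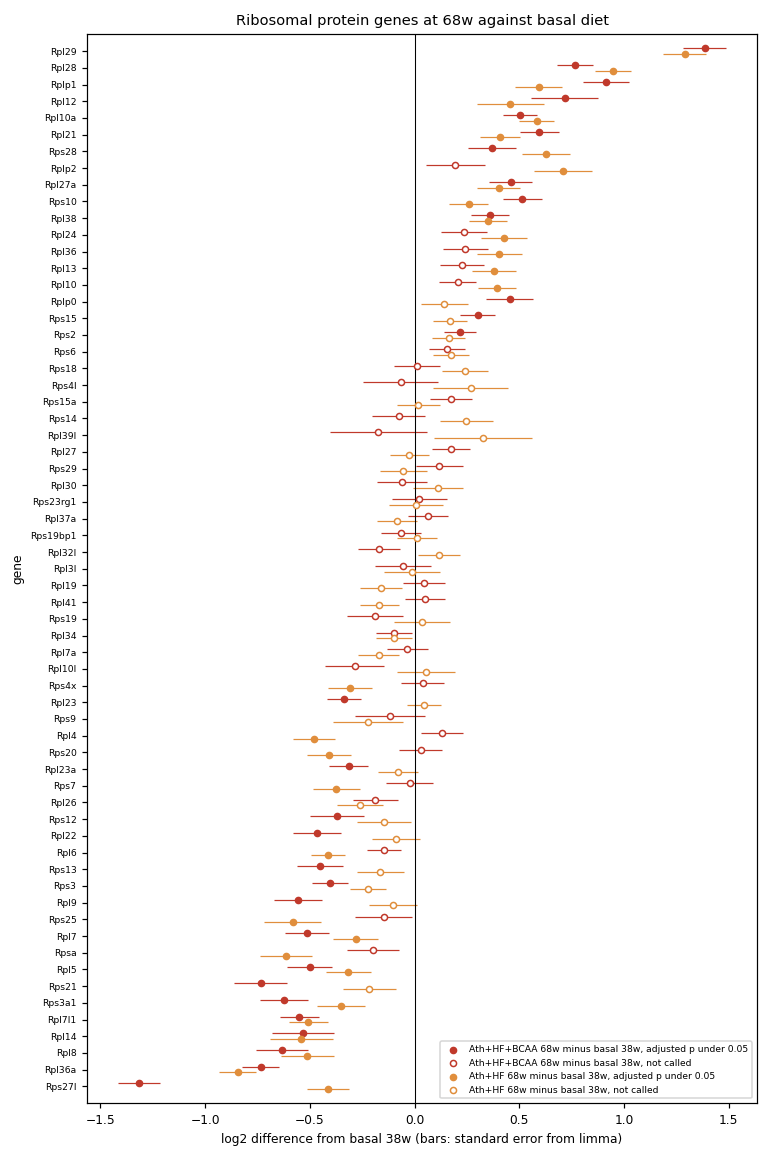
Log2 difference from basal diet of the 63 genes in Ath+HF+BCAA 68w (red) and Ath+HF 68w (orange), with the standard error from limma as bars, filled where the adjusted p was under 0.05. Rpl29 lies at 1.38 and 1.29 at the top, and Rps27l at -1.32 and -0.41 at the bottom.

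By subunit, in Ath+HF+BCAA 68w against basal diet 9 of 33 standard large subunit genes were higher and 9 lower, and 4 of 21 small subunit genes were higher and 5 lower. Over all genes 22.9% were higher and 21.8% lower there. In Ath+HF 68w against basal diet 13 large subunit genes were higher and 7 lower, and 2 small subunit genes were higher and 6 lower. Over all genes 19% were higher and 19.1% lower in Ath+HF 68w. The difference between the subunits was not tested, and no counts by subunit are given for the other scalings. The small subunit gene with the highest log2 difference in Ath+HF 68w was Rps28, at 10.51, 10.45 and 10.25 in Ath+HF+BCAA 68w and 10.66, 10.54 and 10.78 in Ath+HF 68w, against 9.90, 10.02 and 10.17 in basal diet. Its 7 probe groups, this one included, ran from 0.07 to 0.63 in Ath+HF 68w, with 3 called higher, and from -0.06 to 0.37 in Ath+HF+BCAA 68w, with 2 called higher. Rps21, of the small subunit, had 8.57, 8.34 and 8.39 in Ath+HF+BCAA 68w and 8.95, 8.84 and 9.06 in Ath+HF 68w, against 8.93, 9.31 and 9.26 in basal diet. It fell by 0.74 in Ath+HF+BCAA 68w (standard error 0.13, adjusted p = 0.000215 from limma), while -0.22 in Ath+HF 68w was not called, and 1 of its 2 probe groups was called.

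The proteins of the stalk, which recruits the elongation factors to the large subunit, were 3 members, of which 1 was called in both 68w groups. Rplp1 was at 12.99, 12.87 and 12.79 in Ath+HF+BCAA 68w and 12.59, 12.43 and 12.66 in Ath+HF 68w, against 11.76, 12.09 and 12.05 in basal diet, and it was called higher in both (0.92 and 0.59, standard error 0.11 each). Rplp2, its partner in the stalk dimer, was at 7.37, 7.39 and 7.44 in Ath+HF+BCAA 68w and 7.89, 7.78 and 8.07 in Ath+HF 68w, against 7.11, 7.36 and 7.14 in basal diet. It rose in Ath+HF 68w (0.71, standard error 0.14, adjusted p = 0.00138), while its 0.20 in Ath+HF+BCAA 68w was not called. Rplp2 had 1 probe group with a mean of 7.39 over all arrays, near the array medians of 6.91 to 7.16, whereas that of Rplp1 was 12.37. How well this dim probe group follows the mRNA was not tested. Rplp0, the base of the stalk, was at 12.42, 12.51 and 12.55 in Ath+HF+BCAA 68w and 12.14, 12.13 and 12.28 in Ath+HF 68w, against 11.89, 12.11 and 12.12 in basal diet. It rose in Ath+HF+BCAA 68w (0.45, standard error 0.11, adjusted p = 0.0038), while its 0.14 in Ath+HF 68w was not called. Its other probe group was called higher in both (0.52 and 0.29), and with array medians set equal the call in Ath+HF+BCAA 68w did not hold (0.24, adjusted p = 0.0784).

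Rps6 was not called in any comparison. It had 13.30, 13.43 and 13.20 in Ath+HF+BCAA 68w and 13.32, 13.39 and 13.28 in Ath+HF 68w, against 13.17, 13.21 and 13.08 in basal diet. The Ath+HF 68w arrays lay above those of basal diet, and the Ath+HF+BCAA 68w arrays overlapped them. The log2 differences were 0.16 in Ath+HF+BCAA 68w (adjusted p = 0.155 from limma) and 0.17 in Ath+HF 68w (adjusted p = 0.118), each with a standard error of 0.09, and none of its 8 probe groups was called. Between Ath+HF+BCAA 68w and Ath+HF 68w it differed by -0.02 (standard error 0.09, adjusted p = 0.871).

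**Figure D3:**
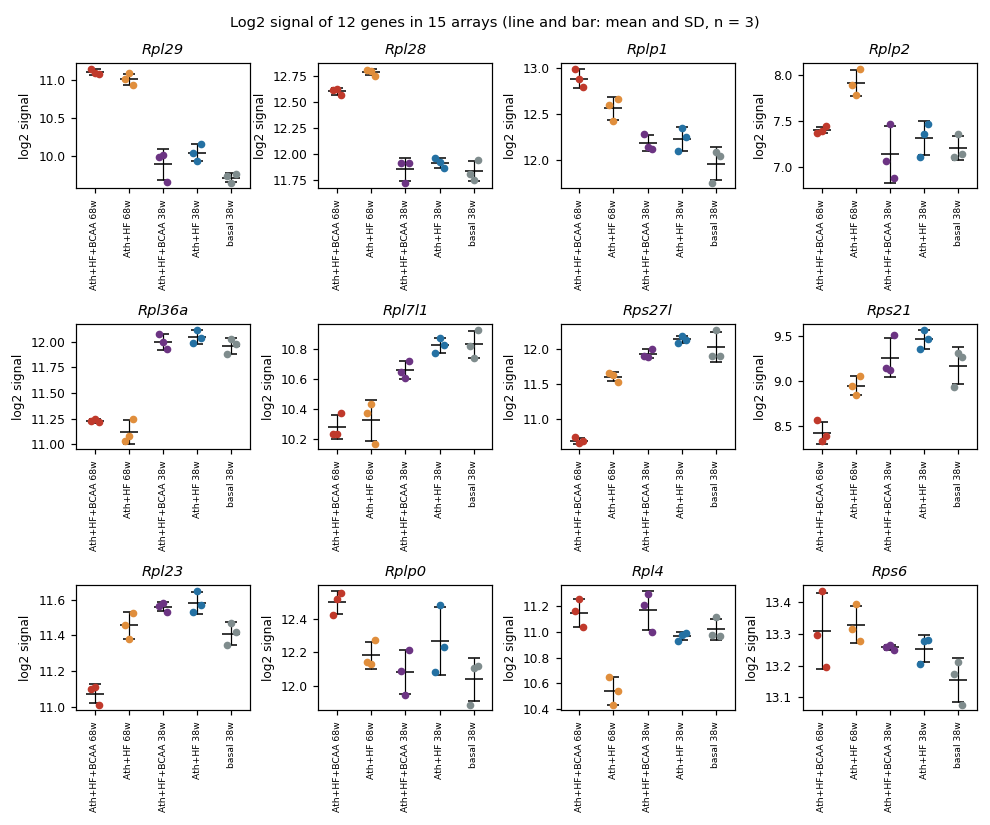
Log2 signal of 12 genes in each array, by group, with the mean as a line and the SD as a bar (n = 3). Rpl29 and Rpl28 are high in both 68w groups, Rpl36a and Rpl7l1 are low in both, Rps27l, Rps21 and Rpl23 are lowest in Ath+HF+BCAA 68w, Rpl4 is lowest in Ath+HF 68w, and Rps6 stays between 13.08 and 13.43 in all arrays.

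From 38w to 68w on the same diet, lower calls outnumbered higher ones. In Ath+HF+BCAA 68w 12 members were higher and 17 lower than in Ath+HF+BCAA 38w, which makes 46.0%, where 38.8% of all genes were called (20.5% higher, 18.3% lower). In Ath+HF 68w 9 were higher and 23 lower than in Ath+HF 38w, which makes 50.8%, where 37.6% of all genes were called (17.6% higher, 20% lower). The 23 lower members of Ath+HF were 10 of the standard large subunit, 11 of the small subunit and 2 paralogs. With quantile normalization 10 were higher and 15 lower in Ath+HF, beside 17.2% and 16% of all genes. In Ath+HF+BCAA the array medians set equal gave 7 higher and 26 lower, beside 11.8% and 28.8% of all genes. Quantile normalization gave 16 higher and 17 lower there, beside 16.9% and 16.8% of all genes. Of the calls with deposited values, 8 higher and 15 lower were kept under both other scalings in Ath+HF, and 7 higher and 16 lower in Ath+HF+BCAA. Rpl36a showed one of the larger declines, at -0.77 in Ath+HF+BCAA and -0.93 in Ath+HF (standard error 0.09 each). Rpl8 was at -0.79 and -0.84 (standard error 0.13 each), and Rpl5 at -0.66 and -0.62 (standard error 0.11 each). Rpl9, part of the large subunit, was at -0.82 in Ath+HF+BCAA and -0.37 in Ath+HF (standard error 0.11 each), and its call in Ath+HF was lost without Ath+HF 38w replicate 2 (adjusted p = 0.0623), Ath+HF 38w replicate 3, Ath+HF 68w replicate 1 or Ath+HF 68w replicate 2. Rpl29 again led the higher members, at 1.21 in Ath+HF+BCAA and 0.96 in Ath+HF (standard error 0.10 each). The markers of other cell types also differed between 68w and 38w. In Ath+HF 68w 8 of 9 macrophage (median -1.82), 5 of 6 endothelial and 4 of 6 stellate markers were lower than in Ath+HF 38w and none higher. In Ath+HF+BCAA 68w 5 of 9 macrophage (median 0.51) and 3 of 4 cholangiocyte markers were higher than in Ath+HF+BCAA 38w and none lower. Of the 6 endothelial markers 2 were higher and 2 lower there, and of the 6 stellate markers 2 were higher and 1 lower. Of the 8 hepatocyte markers 0 were higher and 2 lower in Ath+HF+BCAA, and 1 higher and 0 lower in Ath+HF. With array medians set equal 2 macrophage markers were higher in Ath+HF+BCAA. Their part in these counts was not tested.

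The comparison of Ath+HF+BCAA with Ath+HF asks what the supplement goes with on the same diet. At 38w no member was called, as no gene of the array was (0%), and 2 members had an unadjusted p under 0.05, beside 7.66% of all genes. At 68w 10 members were higher and 7 lower in Ath+HF+BCAA, which makes 27.0% of the members, where 36.2% of all genes were called (19.8% higher, 16.4% lower). The direction rested on the scaling and on single arrays. Of the 10 higher members 2 (Rpl4 and Rps20) and of the 7 lower members 6 (Rpl22, Rpl23, Rpl32l, Rplp2, Rps21 and Rps27l) were called under the other 2 scalings as well. Without Ath+HF+BCAA 68w replicate 2 the higher members were 2, without Ath+HF+BCAA 68w replicate 1 they were 5, and without Ath+HF 68w replicate 2 they were 4.

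Rpl4, which lines the tunnel through which the new protein leaves, had 11.16, 11.26 and 11.04 in Ath+HF+BCAA 68w, against 10.65, 10.43 and 10.54 in Ath+HF 68w. The arrays did not overlap, with a difference of 0.61 (standard error 0.10, adjusted p = 0.000179 from limma), and in basal diet Rpl4 was at 10.98, 11.12 and 10.97. Rps20, of the head of the small subunit, had 12.07, 12.07 and 12.08 in Ath+HF+BCAA 68w, against 11.67, 11.60 and 11.64 in Ath+HF 68w (0.44, standard error 0.10). In both genes the Ath+HF 68w arrays were below those of basal diet (-0.48 and -0.41, both called), and the Ath+HF+BCAA 68w values differed from basal diet by 0.13 and 0.03, neither called. Rpl23, a large subunit protein that can bind Mdm2, had 11.10, 11.11 and 11.01 in Ath+HF+BCAA 68w, against 11.46, 11.38 and 11.53 in Ath+HF 68w (-0.38, standard error 0.08, adjusted p = 0.00172). Rplp2 was lower in Ath+HF+BCAA 68w by 0.51 (log2 difference -0.51, standard error 0.14), and Rplp0 and Rplp1 were higher (0.31 and 0.32, standard error 0.11 each). The signal of Rplp2 lay near the array medians, as given above, which limits this contrast. The calls of Rplp0 and Rplp1 did not hold without single arrays, for instance at adjusted p = 0.112 and 0.134 without Ath+HF 68w replicate 2, nor with array medians set equal (0.17 and 0.18). Rpl22, an RNA-binding protein of the large subunit, was at 8.50, 8.36 and 8.57 in Ath+HF+BCAA 68w, against 8.86, 8.89 and 8.81 in Ath+HF 68w (-0.38, standard error 0.11). Its call was lost without Ath+HF 68w replicate 2 (adjusted p = 0.0539) or Ath+HF+BCAA 68w replicate 2 (adjusted p = 0.0811).

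Whether the difference between Ath+HF+BCAA and Ath+HF changed between 68w and 38w was tested by the interaction of both factors. The count of members called rested on the scaling. Quantile normalization gave 11 higher and 4 lower, beside 11.6% and 10.7% of all genes. Array medians set equal gave 0 higher and 6 lower, beside 9.13% and 18.1% of all genes. With the deposited values the interaction was called for 3 members, where 20.6% of all genes were called. Rps27l gave -0.70 (standard error 0.14, adjusted p = 0.00251 from limma), as it was -0.90 between the groups at 68w and -0.20 at 38w. Rpl23 gave -0.36 (standard error 0.12, adjusted p = 0.0375) and Rplp0 gave 0.49 (standard error 0.16, adjusted p = 0.0381). The call of Rps27l held under each alternative that was run, whereas those of Rpl23 and Rplp0 were lost when any of several arrays was left out. With the labels of the 68w groups exchanged, a calculation added after seeing the data and given as values without a test, the interaction would be 1.11 for Rps27l, 0.41 for Rpl23 and -0.13 for Rplp0.

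**Figure D4:**
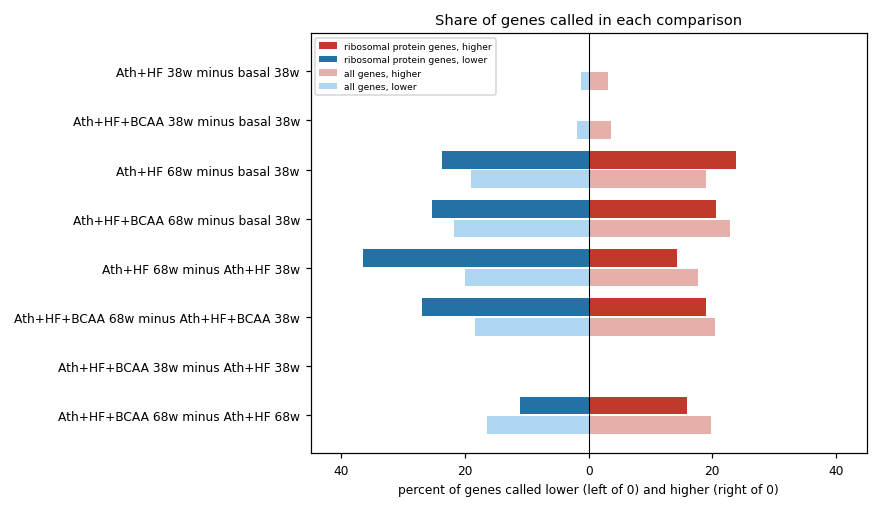
Percent of the 63 genes (dark bars) and of all 19938 genes (pale bars) called higher (right of 0) and lower (left of 0) in each comparison. No ribosomal protein gene was called at 38w, and in the comparisons of 68w arrays their share was 27.0% to 50.8%, beside 36.2% to 44.6% of all genes.

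The paralogs and genes that share only the name were 9, and 2 of them, Rps27l and Rpl7l1, were called against basal diet in both 68w groups. Rpl7l1, a paralog of Rpl7, had 10.24, 10.23 and 10.37 in Ath+HF+BCAA 68w and 10.37, 10.43 and 10.17 in Ath+HF 68w, against 10.82, 10.74 and 10.93 in basal diet, with differences of -0.55 and -0.51 (standard error 0.09 each). Its partner Rpl7 was also called lower, at -0.51 in Ath+HF+BCAA 68w and -0.28 in Ath+HF 68w (standard error 0.11 each). The call of Rpl7 in Ath+HF 68w was lost when any of 9 arrays was left out, with adjusted p = 0.166 without basal diet replicate 2. Rpl10l, whose protein replaces Rpl10 in the testis, was at -0.29 in Ath+HF+BCAA 68w and 0.06 in Ath+HF 68w, and Rpl3l, the form of striated muscle, at -0.06 and -0.01, none of them called. Rpl39l was at -0.17 and 0.33, Rps4l at -0.07 and 0.27, and Rps19bp1 at -0.06 and 0.01, none called, while Rps4x, the standard partner of Rps4l, was called lower in Ath+HF 68w (-0.31, standard error 0.10) and was at 0.04 in Ath+HF+BCAA 68w. The call of Rps4x was lost without any one of 4 arrays, with adjusted p = 0.0963 without Ath+HF 68w replicate 2. The mean signals over all arrays of Rpl10l (6.67), Rpl3l (5.90) and Rpl39l (4.98) lay below the lowest array median of 6.91. Their values may be near the background, and how well they follow the mRNA was not tested.

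Many ribosomal protein genes have processed copies elsewhere in the genome, and 39 members were measured by several probe groups, 219 in all for the 63 members, of which the brightest stood for the gene. Signals of such genes can include near-identical copies and are uncertain to that extent. Probe groups that read the same copies are not independent, so their agreement is not separate support for a call. The probe groups of a gene mostly moved together over the 15 arrays, with a median correlation of 0.954. Rpsa, the laminin receptor of the small subunit, was an exception. Its brightest probe group was at 10.58, 10.72 and 10.70 in Ath+HF+BCAA 68w and 10.27, 10.22 and 10.26 in Ath+HF 68w, against 10.67, 10.94 and 10.98 in basal diet, and it was called lower in Ath+HF 68w (-0.61, standard error 0.12). The 5 probe groups of Rpsa ran from -0.61 to 0.42 there, with 1 called lower and 1 called higher, so that no direction of the gene is given. Rpl7a, of the large subunit, ran from -0.17 to 0.43 over 3 probe groups, with 1 called higher.

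Genes that make or use the ribosome were set beside its proteins. Of 49 ribosome biogenesis genes, which process rRNA and assemble the subunits in the nucleolus, 2 were higher and 24 lower in Ath+HF+BCAA 68w (median log2 difference -0.28), and 1 was higher and 30 lower in Ath+HF 68w (median -0.36), each against basal diet. Over all genes 21.8% were called lower in Ath+HF+BCAA 68w and 19.1% in Ath+HF 68w, with medians of 0.01 and 0.05. With array medians set equal the lower biogenesis genes were 39 and 32, beside 38.2% and 22.9% of all genes. With quantile normalization they were 26 and 20, beside 20.6% and 16% of all genes. The gene called with the smallest p was Brix1, an assembly factor of the large subunit, at -1.72 in Ath+HF+BCAA 68w and -1.18 in Ath+HF 68w (standard error 0.11 each), and among the others called in both was Nop10, a part of the small nucleolar particles that modify rRNA, at -1.18 and -0.79 (standard error 0.11 each). Between the 68w groups 8 biogenesis genes were higher and 7 lower in Ath+HF+BCAA (median -0.01), beside 19.8% and 16.4% of all genes (median -0.09). Array medians set equal gave 3 higher and 14 lower (median -0.15), beside 14.9% and 36.9% of all genes (median -0.23). Quantile normalization gave 4 higher and 13 lower (median -0.15), beside 17.9% and 20.3% of all genes (median -0.07).

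Of 24 initiation factor genes, 1 was higher and 12 lower in each 68w group against basal diet, with medians of -0.26 in Ath+HF+BCAA 68w and -0.28 in Ath+HF 68w. Over all genes 22.9% were higher and 21.8% lower in Ath+HF+BCAA 68w, and 19% and 19.1% in Ath+HF 68w. Eif4e, which binds the mRNA cap, was at -0.78 and -0.65 (standard error 0.08 each), and Eif3m at -1.31 and -1.12 (standard error 0.12 each). Array medians set equal gave 0 higher and 19 lower in Ath+HF+BCAA 68w, and 1 higher and 13 lower in Ath+HF 68w. Of all genes this scaling gave 13.3% higher and 38.2% lower in Ath+HF+BCAA 68w, and 13.3% and 22.9% in Ath+HF 68w. Quantile normalization gave 3 higher and 9 lower in Ath+HF+BCAA 68w, and 3 higher and 6 lower in Ath+HF 68w. Of all genes it gave 19.8% higher and 20.6% lower in Ath+HF+BCAA 68w, and 16.6% and 16% in Ath+HF 68w. Of 13 other translation factor genes with a TOP motif, 2 were higher and 3 lower in each 68w group, with medians of 0.04 and -0.01, and Pabpc1, the poly(A)-binding protein, was at 0.73 and 0.46 (standard error 0.09 each). Of 14 genes of RNA polymerase I, which transcribes rRNA, 1 was higher and 3 lower in Ath+HF+BCAA 68w, and 2 higher and 4 lower in Ath+HF 68w. Of 14 regulators of TOP mRNAs and S6, 5 were higher and 5 lower in Ath+HF+BCAA 68w, and 5 higher and 4 lower in Ath+HF 68w. These counts also moved with the scaling, and the shares of all genes given above for each scaling apply to them too. Whether these short lists differ from those shares was not tested. With array medians set equal, Ath+HF+BCAA 68w had 1 higher and 6 lower TOP factors, 0 and 6 RNA polymerase I genes, and 2 and 8 regulators. In the same order, Ath+HF 68w had 1 and 4, 1 and 6, and 3 and 5. Quantile normalization gave 4 and 2, 2 and 3, and 3 and 5 in Ath+HF+BCAA 68w. In Ath+HF 68w it gave 3 and 3, 4 and 3, and 5 and 4. Larp1 was -0.50 in Ath+HF+BCAA 68w and 0.31 in Ath+HF 68w against basal diet (standard error 0.09 each), both called, and -0.81 between the 68w groups (adjusted p = 4.54e-06 from limma). Eif4ebp1, an inhibitor of Eif4e that mTORC1 phosphorylates, was 0.91 and 0.39 (standard error 0.11 each), both called.

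**Figure D5:**
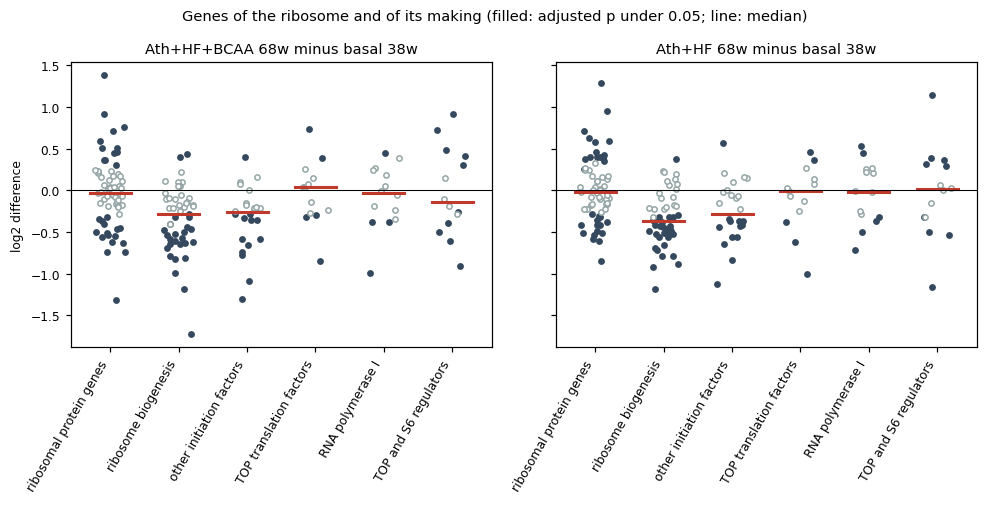
Log2 difference from basal diet of the genes of 6 lists in Ath+HF+BCAA 68w (left) and Ath+HF 68w (right), 1 point per gene, filled where the adjusted p was under 0.05, with the median as a red line. The ribosomal protein genes spread to both sides of 0, whereas the medians of the biogenesis genes lie at -0.28 and -0.36.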

How the data were processed

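Liver RNA was measured on 15 arrays. The authors made the deposited log2 values by RMA (background correction, quantile normalization and summary of probes) with Affymetrix Expression Console (version not given in the sources used here). Of 35556 transcript clusters (probe groups), 21789 carried 1 symbol, 1621 several and 12146 none, and the brightest stood for each of 19938 genes. In R (version 4.3.3), limma (version 3.58.1) was fitted to all 15 arrays with a coefficient for each group (10 residual degrees of freedom), with Benjamini-Hochberg adjustment over all genes. The fit was tested on simulated data. No values were normalized again in the main setting. The members and gene lists were chosen with earlier results of these data known. Named genes are a set fixed by role and, per comparison and direction, the 4 members with the smallest adjusted p whose arrays do not overlap. Nop10, Eif4e and other list genes were taken from the called ones. Alternatives were the mean of a gene's clusters, all clusters, leaving out dim genes, the groups alone, array medians set equal, quantile normalization, a robust fit with a variance trend, weights for arrays, a block for the replicate number, the methods' test with Bonferroni correction, and leaving out each array. Fitting the 38w arrays by themselves was added after seeing the data. The number of arrays limits the precision. The highest correlation between arrays was 0.993, and sequences are from RefSeq (GRCm38.p6).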

Additional observations from a re-analysis of the deposited data

Results flagged for a closer look

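For 3 members the difference between Ath+HF+BCAA and Ath+HF was not the same at 68w as at 38w by the interaction test of limma. Rps27l had an interaction of -0.70 on the log2 scale, Rpl23 of -0.36 and Rplp0 of 0.49. The interaction was called for 20.6% of all genes, and for these 3 of the 63 ribosomal protein genes. With quantile normalization it was called higher for 11 members and lower for 4, beside 11.6% and 10.7% of all genes. The value for Rpl23 was -0.25 with quantile normalization (adjusted p = 0.189), and that for Rplp0 was 0.33 with array medians set equal (adjusted p = 0.128).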

How the results depend on the processing

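Of 91 calls of named genes, 56 held under every alternative and 35 were lost under at least 1, which was the methods' test with Bonferroni correction for 28 of the 91, and 1 changed direction. That was Rpsa in Ath+HF 68w against basal diet, at 0.0005 (adjusted p = 0.998 from limma) with the mean of its clusters. With array medians set equal, 7 members were higher and 26 lower in Ath+HF+BCAA 68w against basal diet. They were 7 and 26 against Ath+HF+BCAA 38w, and 2 and 28 against Ath+HF 68w. The medians were -0.24, -0.20 and -0.19, where 38.2%, 28.8% and 36.9% of all genes were lower, and 13.3%, 11.8% and 14.9% higher. The interaction had 6, beside 9.13% of all genes higher and 18.1% lower. With quantile normalization 22 were higher in Ath+HF+BCAA 68w against basal diet, beside 19.8% of all genes. In Ath+HF 68w against Ath+HF 38w 15 were lower, beside 16% of all genes. The median of Ath+HF+BCAA 68w against Ath+HF+BCAA 38w was 0.08. The interaction had 15, beside 11.6% of all genes higher and 10.7% lower. The methods' test, with Bonferroni correction over pairs of groups and then Benjamini-Hochberg over genes, called 8 higher and 5 lower in Ath+HF 68w against basal diet, 4 and 11 against Ath+HF 38w, and 3 and 2 in Ath+HF+BCAA 68w against Ath+HF 68w. Without the adjustment over genes it had P under 0.05 for 26 members in Ath+HF+BCAA 68w, 24 in Ath+HF 68w, 0 in Ath+HF+BCAA 38w and 1 in Ath+HF 38w against basal diet, for 30 and 23 from 38w to 68w with and without BCAA, and for 8 between the 68w groups. Without dim genes 1 member was higher in Ath+HF 38w against basal diet, 11 were lower in Ath+HF+BCAA 68w against Ath+HF 68w, and the interaction had 9. In that 68w comparison the lower members were 12 with the mean of clusters, 12 with the groups alone and 16 with array weights. The interaction had 8 with a trend and robust fit and 8 with array weights. No share over all genes is given here for the methods' test, the settings named after it, or leaving out 1 array. The counts in those settings therefore do not show whether the members stand out from other genes.

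Leaving out 1 array gave 0 to 1 higher and 0 lower members in Ath+HF 38w against basal diet (1 without Ath+HF+BCAA 38w replicate 3), and 0 in both other 38w comparisons. It gave 11 to 14 higher and 14 to 16 lower in Ath+HF+BCAA 68w, and 13 to 15 higher and 10 to 17 lower in Ath+HF 68w, each against basal diet. Against 38w it gave 10 to 14 higher and 15 to 18 lower in Ath+HF+BCAA, and 6 to 9 higher and 16 to 23 lower in Ath+HF. Between the 68w groups it gave 2 to 10 higher and 5 to 10 lower, and 1 to 4 for the interaction (1 without Ath+HF 38w replicate 3 or Ath+HF+BCAA 68w replicate 2). With the replicate number as a block, 12 members were higher and 16 lower in Ath+HF+BCAA 68w and 15 and 15 in Ath+HF 68w, 2 of the 91 calls were lost, and no count of members moved by over 1.5 times. No pairing of the arrays by number was seen, as same-numbered arrays deviated together in 3 of 30 pairs (correlation above 0.1, median 0.003). With 3 arrays a group this cannot show that the numbers carry no pairing. The causes of these shifts were not tested. Signals near the background of the array limit the dim members.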
